A study of Homo sapiens with 4 samples.

Results

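The regions described here are the SMAR1 peaks that lay far from transcription start sites (TSSs), outside every protein-coding gene and without a long pure dinucleotide repeat. They were taken from the peak lists of HCT116 p53+/+ and HCT116 p53-/- cells by position and sequence alone. A peak was a member when it lay on chromosomes 1 to 22 or X of hg19, had its centre over 1 kb from every TSS of GENCODE release 44 and outside every gene of the protein_coding biotype, and lay over 200 kb from any run of at least 50 kb of N. Its own sequence also held no pure alternation of T and C (A and G on the other strand) or of T and G (A and C) of 12 bp or more. By this rule 788 of 5709 peaks in HCT116 p53+/+ and 723 of 8217 peaks in HCT116 p53-/- were members, 1511 of 13926 in all. The rule used neither the score of a peak nor the other list.

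HCT116 is an established line of human colorectal carcinoma cells, and the study immunoprecipitated chromatin with an antibody against SMAR1 from cells that carry p53 (HCT116 p53+/+) and from the p53-null line (HCT116 p53-/-), to compare where SMAR1 binds with and without p53. Both lines were grown in the same medium and went through the same ChIP protocol. Each cell line had 1 anti-SMAR1 library and 1 list of peaks, so no difference between the lines has a replicate check and no p-value is given. The IgG libraries were not analysed here. The score of a peak is 10 times the negative log10 of the p-value that MACS gave it. Scores grow with sequencing depth, which was greater for HCT116 p53-/- by the study's read totals and is not held in the lists, so they are compared only within a list. Each share stands with its 95% interval by Wilson's method, and the intervals hold counting error alone.

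SMAR1, also called BANP, is a nuclear matrix protein that was first described for binding matrix attachment regions, stretches of AT-rich DNA that unpair readily and anchor chromatin loops. It is known to bind p53 and to recruit repressor complexes to promoters. BANP is also known as the factor that binds a palindrome with CGCG at its centre in CpG-island promoters, and methylation of the CpGs in that palindrome prevents the binding.

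The sequences that the results turn on are printed here on the plus strand of hg19. The first set holds the 8 base core of the palindrome, CTCGCGAG, in capitals with 50 bases on each side. They are the 4 HCT116 p53-/- members with the core in the 200 bp around the peak centre, at chr16:30411989-30412096 near ZNF48, chr9:6681642-6681749 near GLDC, chr19:36422589-36422696 near LRFN3 and chr18:77404066-77404173 near CTDP1.
ZNF48 member: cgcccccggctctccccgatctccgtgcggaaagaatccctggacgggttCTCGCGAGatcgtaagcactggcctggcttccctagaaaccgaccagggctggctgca
GLDC member: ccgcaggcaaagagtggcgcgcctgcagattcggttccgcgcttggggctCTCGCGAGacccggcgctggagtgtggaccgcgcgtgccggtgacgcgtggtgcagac
LRFN3 member: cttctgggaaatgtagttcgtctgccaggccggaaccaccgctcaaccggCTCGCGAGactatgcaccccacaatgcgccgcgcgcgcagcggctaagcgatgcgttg
CTDP1 member: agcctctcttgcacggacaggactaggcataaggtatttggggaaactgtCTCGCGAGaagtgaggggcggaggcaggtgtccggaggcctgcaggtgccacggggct

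The second sequence shows the core with TpG in place of its second CpG (CTCGTGAG, in capitals) in an HCT116 p53-/- member at chr5:56598003-56598110 near GPBP1. This word was chosen after the values were seen, because the GPBP1 member and a member near MALT1 were among the 5 with the highest scores of their list.
GPBP1 member: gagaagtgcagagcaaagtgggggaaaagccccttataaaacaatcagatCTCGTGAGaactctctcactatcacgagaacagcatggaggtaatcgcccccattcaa

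The third set shows the repeats that most members hold although the rule removed pure T-and-C and T-and-G runs. They are whole members or the central 90 bases of one, with the longest tandem run, the longest mixed T(C/G) run or the longest purine stretch in capitals. The GPC5 member (chr13:91699248-91699289) and the TRHDE member (chr12:73835556-73835602) are from HCT116 p53+/+, the PRICKLE1 member (chr12:43262778-43262813) and the TMEM121 member (chr14:106039665-106039709) from HCT116 p53-/-, and the ZEB2 member (chr2:146056087-146056121) and the TBX3 member (chr12:115312290-115312379) were called in both lists.
GPC5 member: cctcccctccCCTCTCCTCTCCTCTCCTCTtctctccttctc
TRHDE member: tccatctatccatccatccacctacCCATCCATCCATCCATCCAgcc
PRICKLE1 member: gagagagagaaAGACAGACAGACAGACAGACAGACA
ZEB2 member: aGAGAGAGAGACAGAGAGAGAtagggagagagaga
TBX3 member: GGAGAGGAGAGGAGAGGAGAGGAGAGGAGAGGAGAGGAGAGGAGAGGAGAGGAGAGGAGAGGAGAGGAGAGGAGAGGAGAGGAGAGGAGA
TMEM121 member: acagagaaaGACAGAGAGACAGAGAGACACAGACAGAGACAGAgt

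The last set shows members that resemble other known elements. The CCDC136 member (chr7:128423501-128423573) and the BTN3A2 member (chr6:26327814-26327896) of HCT116 p53-/- hold the A box and the B box of a tRNA gene, in capitals. The CWH43 member of HCT116 p53+/+ (chr4:49099188-49099277 is shown) holds the satellite word CATTCCATT in capitals.
CCDC136 member: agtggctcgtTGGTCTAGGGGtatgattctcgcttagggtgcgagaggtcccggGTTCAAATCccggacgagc
BTN3A2 member: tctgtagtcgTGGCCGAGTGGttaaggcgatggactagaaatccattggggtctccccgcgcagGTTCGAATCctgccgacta
CWH43 member: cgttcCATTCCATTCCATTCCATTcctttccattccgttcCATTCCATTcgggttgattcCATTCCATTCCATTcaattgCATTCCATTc

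Most members held a tandem run, a purine or pyrimidine stretch or a mixed run that the rule did not remove. A tandem run (a unit of 1 to 6 bp, repeated without a break over at least 12 bp and in at least 3 copies) was present in 375 of 788 members in HCT116 p53+/+ (47.6%, interval 44.1 to 51.1%) and in 378 of 723 in HCT116 p53-/- (52.3%, 48.6 to 55.9%). A stretch of at least 20 bp made only of C and T, or only of A and G, was present in 281 (35.7%) and 299 (41.4%) members, respectively. A mixed T(C/G) run of at least 12 bp, in which T alternates with C or G in any order, was present in 84 members of HCT116 p53+/+ (10.7%, 8.69 to 13%) and in 146 of HCT116 p53-/- (20.2%, 17.4 to 23.3%), and these intervals do not overlap. The same order was seen in distal non-repeat peaks inside coding genes (9.79% and 17.6%) and over all peaks on the same chromosomes (61.1% and 75.9%), so it was not particular to the members. At least 1 of these 3 features was found in 521 members of HCT116 p53+/+ (66.1%, 62.7 to 69.3%) and 577 of HCT116 p53-/- (79.8%, 76.7 to 82.6%).

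These features were set beside a census of hg19, which counted every one of the 6946886 windows of 200 bp that meet the same rule. For this comparison the members were limited to those whose own 200 bp window held no pure run either, 745 in HCT116 p53+/+ and 675 in HCT116 p53-/-. Any tandem run was present in 57.7% of these member windows in HCT116 p53+/+ (54.1 to 61.2%) and 63.1% in HCT116 p53-/- (59.4 to 66.7%), against 9.32% of all windows. A purine or pyrimidine stretch was present in 39.6% and 47.6%, against 3.89% of all windows. A mixed T(C/G) run was present in 10.9% and 19.9%, against 0.910% of all windows. Other peaks held these features as well. Over all members, with or without a pure run in the window, any tandem run was present in 60% and 65.6% and a stretch in 41% and 47.4%. In distal non-repeat peaks inside coding genes the shares were 57.8% and 67.1% for the tandem run and 36.3% and 41.2% for the stretch, with intervals that overlap those of the members. Over all peaks, which include the pure repeats, they were 77.8% and 85% for the tandem run and 42.8% and 56% for the stretch, none of them lower than in the members. The members also had more GC than the census, with a median of 47.5% in both lists against 39.0%, and how much of the shares goes with GC was not tested.

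The unit that recurred most often was AGAGG on one strand or the other, the longest run in 52 members of HCT116 p53+/+ and 72 of HCT116 p53-/-. A run of this unit was present in 7.25% and 11.9% of the member windows, respectively, against 0.0113% of all windows. Over all members the shares were 7.36% (5.74 to 9.40%) and 11.3% (9.23 to 13.9%), against 5.87% and 6.99% in distal non-repeat peaks inside coding genes and 2.32% and 1.92% over all peaks. The GPC5 member had the highest score of these in HCT116 p53+/+ (150.97) and a member near DIAPH2 on chromosome X had it in HCT116 p53-/- (192.42). Units of only A and G made up 44.5% of the members with a tandem run in HCT116 p53+/+ and 46.0% in HCT116 p53-/-. The other frequent units were AGG (36 and 20 members), AGGG (32 and 34), AGAGGG (22 and 24), ACC (25 and 22), ATCC (23 and 16) and ACAG (20 and 19). Runs of A were common in the genome and were hardly more frequent in the members, in 5.77% of the windows of HCT116 p53+/+ and 4.89% of HCT116 p53-/- against 4%. In all, 66 different units were found in HCT116 p53+/+ and 53 in HCT116 p53-/-.

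Each member was then put in the first of 5 sequence groups that it met, a grouping made after the sequences were seen. The groups were an interrupted pyrimidine or T(C/G) run (a stretch of 20 bp or a mixed run of 12 bp), another tandem run, a CpG-rich window (GC of at least 55% and an observed to expected CpG ratio of at least 0.6), a centre that is not unique in hg19, and all other members. An interrupted run was held by 343 members of HCT116 p53+/+ (43.5%) and 412 of HCT116 p53-/- (57.0%). Another tandem run was held by 178 (22.6%) and 165 (22.8%). The CpG-rich group had 13 members in each list, and its median score was 92.22 in HCT116 p53-/- against 71.51 over all members of that list, and 69.76 in HCT116 p53+/+ against 65.98. Whatever their group, 30 members of HCT116 p53+/+ (3.81%) and 28 of HCT116 p53-/- (3.87%) had a CpG-rich window, with median scores of 68.18 and 84.09. Such windows were held by 7.93% and 9.12% of all peaks, and by 4.97% and 3.59% of distal non-repeat peaks inside coding genes. The group with none of these features held 196 members of HCT116 p53+/+ (24.9%) and 96 of HCT116 p53-/- (13.3%).

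**Figure D1:**
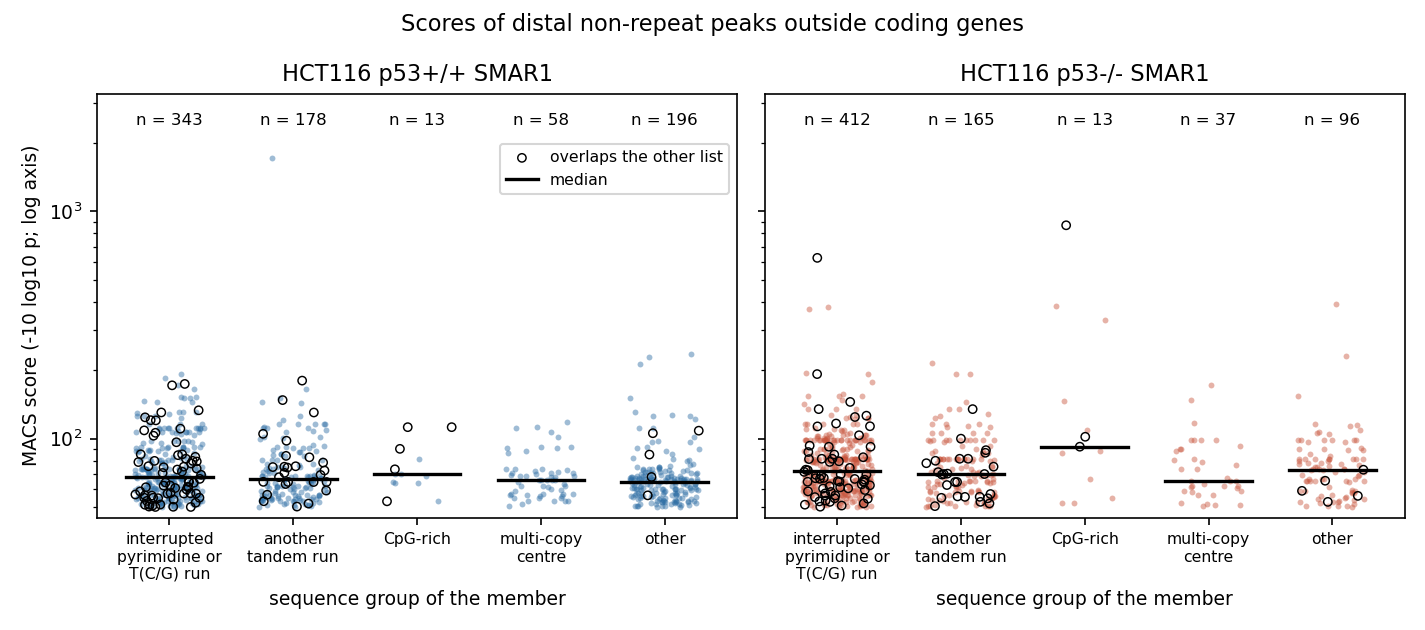
MACS score of every member (vertical log axis, 10 times the negative log10 of p) by sequence group, with HCT116 p53+/+ on the left and HCT116 p53-/- on the right. Points are members, open circles are members that overlap the other list, and bars are medians; the 5 highest scores of HCT116 p53-/- lie in the interrupted, CpG-rich and other groups, while the highest score of HCT116 p53+/+ (1708.82) is a tandem run.

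The typical member scored close to the median of its list. The median score was 65.98 in HCT116 p53+/+ and 71.51 in HCT116 p53-/-, against 67.88 and 73.93 over all peaks on the same chromosomes. Of the 100 highest scores of each list, 4 belonged to members in HCT116 p53+/+ and 1 in HCT116 p53-/-, while members were 788 of 5709 and 723 of 8217 peaks. Distal non-repeat peaks inside coding genes had 1 and 0 of them, and distal T-and-C repeat peaks outside coding genes 5 and 0. Peaks within 1 kb of a TSS had 71 and 96, so few top scores were not particular to the members. The members were short, with a median length of 64 bp in HCT116 p53+/+ and 55 bp in HCT116 p53-/-, and 260 (33.0%) and 302 (41.8%) of them were under 50 bp. Members of at least 200 bp numbered 38 (4.82%) and 48 (6.64%). Among these long members, 15.8% in HCT116 p53+/+ and 27.1% in HCT116 p53-/- had a CpG-rich window, against 1.54% and 0.993% of the members under 50 bp.

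The highest score in HCT116 p53+/+ belonged to the telomeric repeat at the start of assembled chromosome 5 (chr5:10000-11815, 1708.82), which held 1103 bp of the unit AACCCT without a break. The next 2 were side by side at GH1, the growth hormone gene, with scores of 229.87 (chr17:61994036-61994384) and 234.7 (chr17:61994425-61994673). The second of them covered the 3' end of GH1, which lies on the minus strand from 61994560 to 61996199 on chromosome 17, with the peak centre 11 bp outside the gene. Both GH1 members had a unique centre and held none of the repeats, and neither overlapped a peak of HCT116 p53-/-. The fourth and the fifth were short, at chr4:44132575-44132610 (score 213.26, 36 bp with a GC content of 21% in its window, 43.3 kb from KCTD8) and at chr15:60418890-60418924 (score 191.96, a run of the unit ACAG, 65.0 kb from FOXB1, a forkhead transcription factor). None of the 5 overlapped the other list.

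In HCT116 p53-/- all of the 5 highest scores belonged to members of 366 bp or more with a unique centre. The palindrome members near ZNF48 (868.64) and GLDC (624.37) came first, followed by the GPBP1 member (390.47), a CpG-rich member 1.21 kb from the zinc finger gene ZNF500 (chr16:4818589-4819071, 382.63) and the MALT1 member (380.3). The first 2 overlapped the other list and the other 3 did not.

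The core palindrome was rare among the members, but 3 of the 4 members that held it in HCT116 p53-/- scored 332.68 or more. It was present in 3 of 788 members in HCT116 p53+/+ (0.381%, 0.130 to 1.11%) and in 4 of 723 in HCT116 p53-/- (0.553%, 0.215 to 1.41%). Over all peaks on the same chromosomes the shares were 2.45% and 2.52%, and within 1 kb of a TSS they were 15.7% and 14.7%. In the census the palindrome was present in 0.00904% of windows. It was found in none of the distal T-and-C repeat peaks outside coding genes, 0 of 907 (interval up to 0.422%) and 0 of 2060 (up to 0.186%). Distal non-repeat peaks inside coding genes held it in 2 of 664 and 4 of 529, and those intervals (0.0826 to 1.09% and 0.294 to 1.93%) overlap those of the members.

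The member near ZNF48, a zinc finger gene, had its centre 582 bp beyond the gene and held 15 CpGs in its window in HCT116 p53+/+, where its score was 112.4. In HCT116 p53-/- the member at the same place spanned 452 bp (218 bp in HCT116 p53+/+), scored 868.64 and had the palindrome 1 bp from its centre. The member near GLDC, which encodes glycine decarboxylase of the glycine cleavage system, lay in the lncRNA gene ENSG00000236924. It scored 112.4 in HCT116 p53+/+ and 624.37 in HCT116 p53-/-, where it spanned 586 bp and covered 2 members of the other list. The member near CTDP1, a phosphatase of RNA polymerase II, lay in the lncRNA gene CTDP1-DT and scored 56.34 and 101.97, respectively. The LRFN3 member was called only in HCT116 p53-/-, with a score of 332.68 and the palindrome 7 bp from its centre. All 3 palindrome members of HCT116 p53+/+ thus overlapped a palindrome member of HCT116 p53-/-, and the reverse held for 3 of 4. Sequencing depth differed between the lists, so the scores and lengths given for the same place do not compare the lines.

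CTCGTGAG was present in 8 members of HCT116 p53-/- (1.11%, 0.562 to 2.17%) and in 1 of HCT116 p53+/+ (0.127%, 0.0224 to 0.715%), with intervals that overlap. Among the windows without a pure run these are 1.19% (0.602 to 2.32%) and 0.134% (0.0237 to 0.756%), against 0.143% of the census windows. Distal non-repeat peaks inside coding genes held it in 0 of 664 and 5 of 529 (0.945%), and over all peaks the shares were 0.347% in HCT116 p53+/+ and 0.492% in HCT116 p53-/-. The 8 were not 8 unrelated sequences, since 3 of them matched the GPBP1 member at 75 to 90% of 60 flanking bases. In addition, 2 others were adjacent peaks near TNKS with overlapping windows and the same match of 19 of 60 bases. A single copy of the word may therefore count for both. In HCT116 p53-/- the scores ran from 50.8 to 390.47, and none of the 8 overlapped the other list. The 20 bases around the motif in the GPBP1 member occurred 29 times on the chromosomes analysed. The 3 members with the highest scores were the longest of the 8 (366 to 418 bp). A CGCG was found in 30 members of HCT116 p53+/+ (3.81%, 2.68 to 5.38%) and 49 of HCT116 p53-/- (6.78%, 5.16 to 8.85%), against 10.8% and 12.6% over all peaks.

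**Figure D2:**
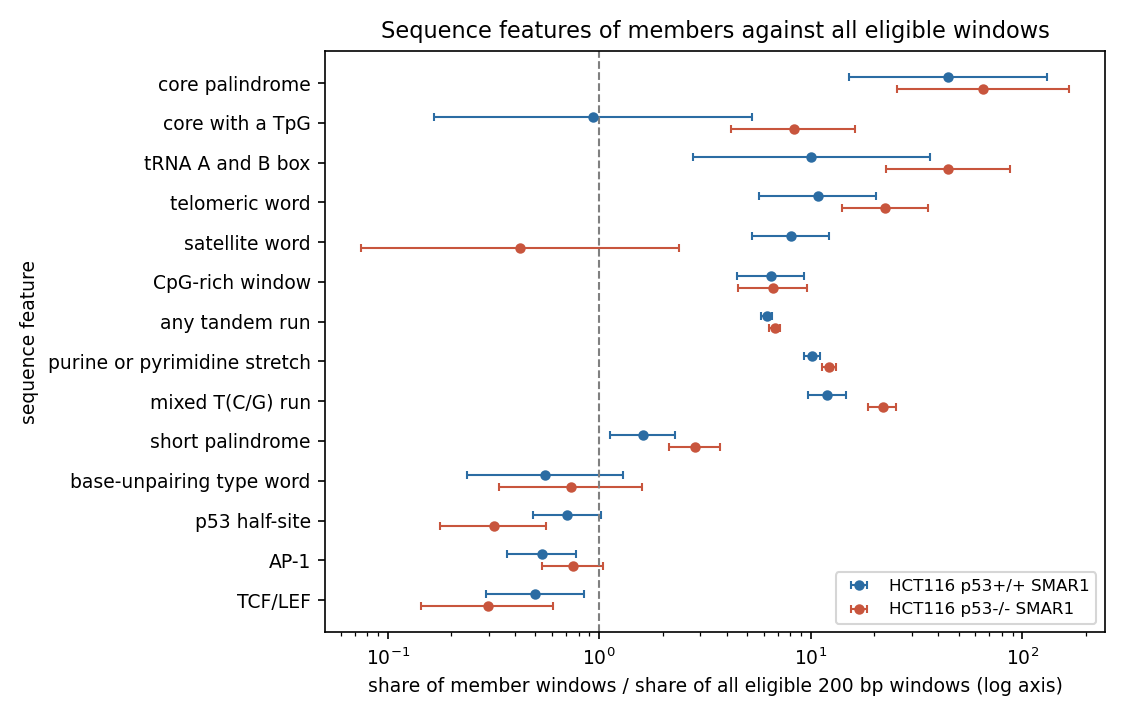
Share of member windows with each sequence feature, divided by its share among all eligible 200 bp windows (horizontal log axis), for the members without a pure run in the window. Points are the 2 cell lines, bars are 95% Wilson intervals of the members' share, and the dashed line marks equal shares; the core palindrome lies at 44.5 and 65.6, and the p53 half-site at 0.706 and 0.317.

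tRNA-like sequence was found in 10 members, most of them in HCT116 p53-/-. The A box and the B box are the internal promoter elements that recruit RNA polymerase III to tRNA genes, and both in order were present in 8 members of HCT116 p53-/- (1.11%, 0.562 to 2.17%) and in 2 of HCT116 p53+/+ (0.254%, 0.0696 to 0.921%), with intervals that overlap. Among the windows without a pure run these are 1.19% and 0.268%, against 0.0266% of the census windows. Over all peaks the shares were 0.197% in HCT116 p53-/- and 0.0914% in HCT116 p53+/+. The pair of boxes was added as a search after tRNA-like sequence had been seen. The 8 members scored from 50.78 to 88.63, and 6 of them had a centre that occurs 5 to 9 times in hg19. They lay near CCDC136 (88.63), BTN3A2 (76.27), PER1 (75.33), HJV (66.83), PRSS16 (61.73), OR1F1 (59.14), ZNF789 (51.14) and H2BC11 (50.78), and BTN3A2, PRSS16 and H2BC11 are all on chromosome 6. The 2 members of HCT116 p53+/+ lay near RNF144B (71.62) and TRIM27 (56.34), on chromosome 6 as well. None of the 10 overlapped the other list.

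Satellite and telomeric sequence were each found in a few members. The word CATTCCATT, typical of the GGAAT satellite of pericentromeric heterochromatin, was present in 21 members of HCT116 p53+/+ (2.66%, 1.75 to 4.04%) and in 1 of HCT116 p53-/- (0.138%, 0.0244 to 0.779%), and these intervals do not overlap. The whole lists differed in the same way, with 2.28% of all peaks in HCT116 p53+/+ and 0.185% in HCT116 p53-/-, so the difference was not particular to the members. The census share was 0.351%. Of the 21, 8 lay in the largest group of members within 10 kb of each other in that list (chr4:49098807-49133015, near CWH43) and 6 in 2 groups near ZNF33B on chromosome 10. The 8 members of the chromosome 4 group scored from 51.32 to 80.57, none overlapped the other list, and the central 31 bases of 7 of them occurred more than once in hg19. The telomeric word TTAGGGTTA was present in 9 members of HCT116 p53+/+ (1.14%, 0.602 to 2.16%) and 17 of HCT116 p53-/- (2.35%, 1.47 to 3.73%), against 0.567% and 0.468% of all peaks and 0.112% of windows. Apart from the chromosome 5 end in HCT116 p53+/+, their scores stayed at or below 130.4, the score of the member at the start of chromosome 7, which was also called in HCT116 p53-/- (71.27).

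Sites of common transcription factors were as frequent in the windows without a pure run as in the census or less frequent, or were found in too few members to compare. All were searched on both strands. The p53 half-site was present in 27 members of HCT116 p53+/+ (3.62%, 2.50 to 5.22%) and in 11 of HCT116 p53-/- (1.63%, 0.912 to 2.89%), while 5.13% of the census windows held it. Over all peaks the shares were 3.11% and 3.33%, and in distal non-repeat peaks inside coding genes, where the order of the cell lines was the reverse, 1.05% and 2.65%. The census value lay within the interval of HCT116 p53+/+ and above that of HCT116 p53-/-. The AP-1 site TGANTCA was present in 3.49% (2.39 to 5.06%) and 4.89% (3.50 to 6.79%), against 6.53% of the census windows and 3.91% and 3.52% of all peaks. The TCF/LEF site ATCAAAG was present in 1.74% (1.02 to 2.96%) and 1.04% (0.503 to 2.12%), against 3.49% of the census windows and 1.72% and 1.77% of all peaks. The word AATATATTT, of the base-unpairing kind known from matrix attachment regions, was present in 0.671% (0.287 to 1.56%) and 0.889% (0.408 to 1.93%), against 1.21%, which lies within both intervals. The lower GC of the census windows stands beside these shares as well, and its part was not tested. The CTCF consensus was found in 1 member of HCT116 p53+/+ and 2 of HCT116 p53-/-, the NRF1 consensus in 0 and 1, the ETS site CCGGAAG in 2 and 1 and the CREB site TGACGTCA in 1 and 0, all among these windows.

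The overlap of the members with the other list was about the same in both directions. At least 1 bp was shared by 102 members of HCT116 p53+/+ (12.9%, 10.8 to 15.5%) and 95 of HCT116 p53-/- (13.1%, 10.9 to 15.8%), against 20.2% and 13.5% over all peaks of each list. The overlapping peak was itself a member for 95 of 102 and 94 of 95. Distal non-repeat peaks inside coding genes overlapped in 11% (8.84 to 13.6%) and 12.5% (9.93 to 15.6%), with intervals that overlap those of the members. Of the distal T-and-C repeat peaks outside coding genes, 258 of 907 overlapped in HCT116 p53+/+ (28.4%, 25.6 to 31.5%). In HCT116 p53-/- it was 257 of 2060 (12.5%, 11.1 to 14%). Distal T-and-G repeat peaks outside coding genes overlapped in 4.95% (3.55 to 6.88%) and 4.26% (3.09 to 5.83%), with both intervals below those of the members. Within 1 kb of a TSS 402 of 766 peaks (52.5%) and 357 of 1281 (27.9%) overlapped. Overlap is mutual, so similar numbers of overlapping peaks give shares that vary with the number of peaks in each list. Neither the like shares of the members nor the unlike shares of other classes therefore compare the lines.

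**Figure D3:**
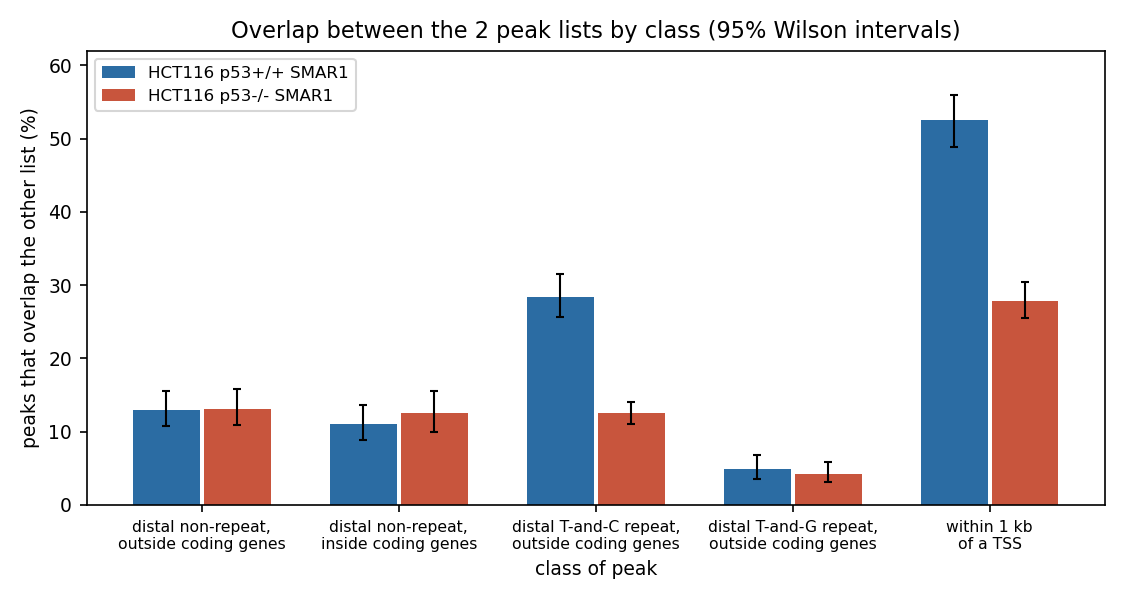
Share of peaks that overlap a peak of the other list by at least 1 bp (vertical axis, %) for 5 classes of peak, with bars for each cell line and 95% Wilson intervals. The members stand at 12.9% and 13.1%, between the T-and-G repeat peaks and the peaks at TSSs.

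The overlap went with length and sequence group. Members of at least 200 bp overlapped the other list in 50% of cases in HCT116 p53+/+ (19 of 38, 34.8 to 65.2%) and 41.7% in HCT116 p53-/- (20 of 48, 28.8 to 55.7%). Members under 50 bp did so in 8.85% (5.97 to 12.9%) and 4.97% (3.03 to 8.03%). A longer peak has more bases with which to overlap. By sequence group, the members with an interrupted run overlapped in 19.2% (15.4 to 23.7%) and 14.8% (11.7 to 18.6%), and those with another tandem run in 14.6% and 15.8%. The CpG-rich group overlapped in 5 of 13 and 3 of 13. The 5 include 2 members near GLDC that overlap the same longer member of HCT116 p53-/-, which falls in the group with interrupted runs. The members with none of the features overlapped in 5 of 196 (2.55%, 1.09 to 5.83%) and 5 of 96 (5.21%, 2.24 to 11.6%). No member of the multi-copy group did, 0 of 58 (interval up to 6.21%) and 0 of 37 (up to 9.41%). That group holds only the members that met no earlier group, 58 of 245 and 37 of 218 with a repeated centre. Members with a unique centre overlapped in 12.2% and 13.5%, against 12.9% and 13.1% of all members, so a repeated centre as such did not go with less overlap. Overlapping members scored little differently from the rest, with a median of 69.32 against 65.84 in HCT116 p53+/+ and 67.21 against 73.93 in HCT116 p53-/-.

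There were 97 pairs of members that overlapped each other, 61 of them with an interrupted run. Across these pairs the Spearman's rho between the scores of the lists was -0.0479, given as a description. The 2 pairs that ranked best by the worse of their within-list percentiles were those near ZNF48 and GLDC, both at the 90.4 percentile of HCT116 p53+/+. The next was a 35 bp peak 777 kb from ZEB2, a zinc finger repressor of epithelial genes, which had the same start and end in both lists and scored 171.7 and 134.93. It was followed by the purine repeat 190355 bp from TBX3, a T-box repressor gene (133.35 and 124.58), which held 231 bp of AGAGG without a break and the central 31 bases occurred 517 times in hg19. Of the other 6, 5 had as nearest coding genes MICALL2 at 4.86 kb (96.48 and 87.36), CHRFAM7A at 34.2 kb (90.23 and 92.22), DLGAP1 at 55.6 kb (147.86 and 86.71), TBC1D22A at 59.6 kb (84.04 and 81.61) and CTNNA3 at 861 kb (106.16 and 92.18). Of the 10 pairs, 3 were in the CpG-rich group, 5 held an interrupted run and 2 another tandem run.

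The centre of most members was unique in hg19. The central 31 bases occurred more than once in hg19 in 245 members of HCT116 p53+/+ (31.1%, 28 to 34.4%) and 218 of HCT116 p53-/- (30.2%, 26.9 to 33.6%), against 48.4% and 53.6% of all peaks on these chromosomes. For distal T-and-C repeat peaks outside coding genes the shares were 53.7% and 56.5%, and for T-and-G repeat peaks 72.5% and 77.7%. The members were chosen to lack the pure runs that define these classes and that many of all peaks hold. Shifted matches within a single long run were counted as copies, so these contrasts follow in part from the rule. The centre of 27 members of HCT116 p53+/+ and 16 of HCT116 p53-/- occurred at least 1000 times. Of these, 0 and 1 overlapped the other list. Of those with at least 100 but fewer than 1000 copies, 9 of 38 (23.7%) and 7 of 24 (29.2%) overlapped it. With at least 10 but fewer than 100 copies the shares were 8.77% and 7.5%, and with 2 to 9 copies 17.9% and 11.6%. The overlap thus did not fall steadily as the number of copies rose.

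**Figure D4:**
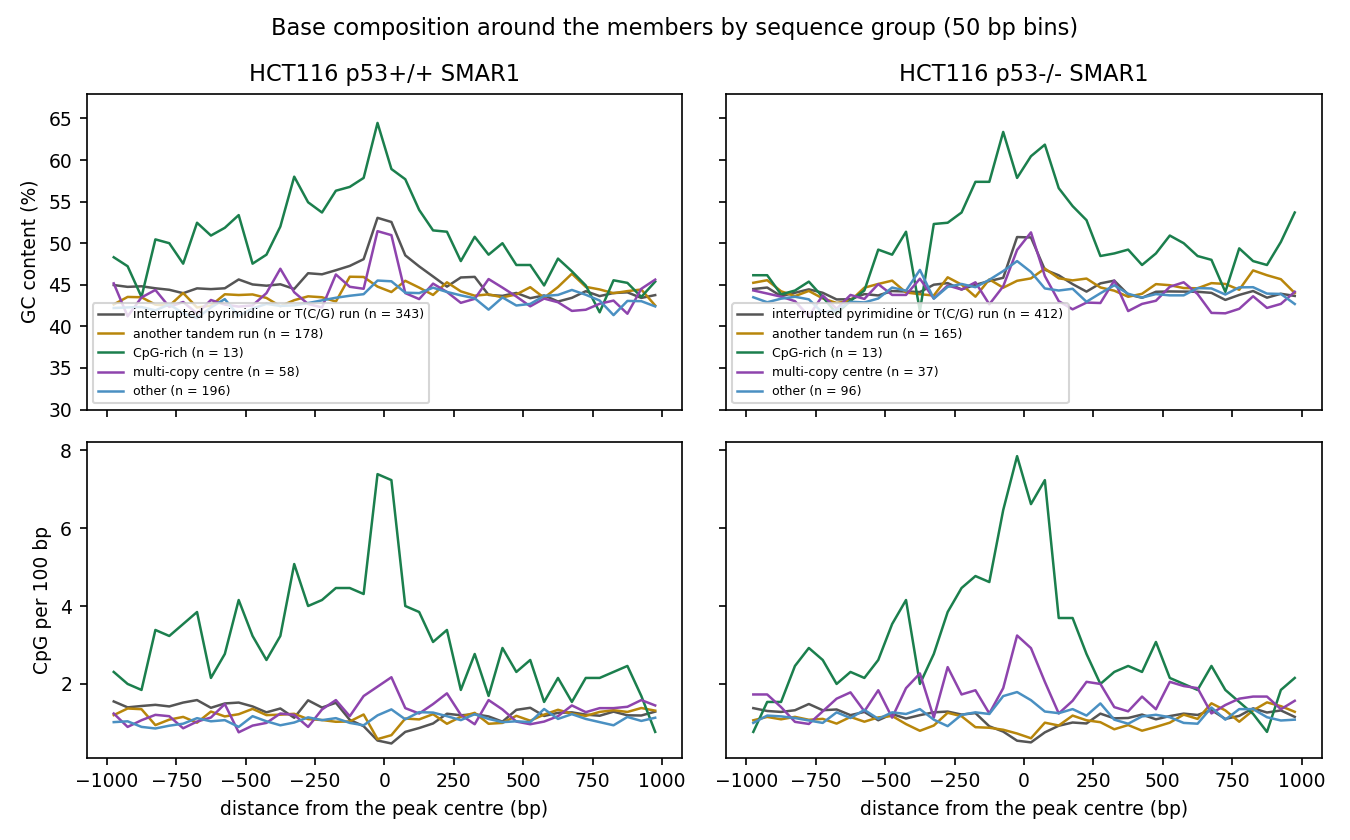
GC content (upper panels, %) and CpGs per 100 bp (lower panels) in bins of 50 bp by distance from the peak centre, for each sequence group of HCT116 p53+/+ (left) and HCT116 p53-/- (right). In the CpG-rich group the central 100 bp held 7.31 and 7.23 CpGs per 100 bp, and in the group with interrupted runs CpGs were fewer at the centre (0.510 and 0.522) than in the flanks (1.34 and 1.31).

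Base composition differed from the flanks mainly within the peak itself. Over all members the central 100 bp had a GC content of 49.1% in HCT116 p53+/+ and 49.2% in HCT116 p53-/-, against 43.6% and 44.2% at 750 to 1000 bp from the centre. The rule for the CpG-rich group used the central 200 bp, so its values there describe the choice. The group with interrupted runs reached 52.8% and 50.7% GC at the centre with few CpGs, and the members with none of the features had 45.5% against 42.4% in their flanks and 47.2% against 43.6%. The smallest differences were those of the group with another tandem run (44.5% against 43.4%, and 45.6% against 45%).

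The members lay in intergenic sequence and in lncRNA genes. The peak centre was inside a lncRNA gene in 188 members of HCT116 p53+/+ (23.9%, 21 to 27.0%) and 173 of HCT116 p53-/- (23.9%, 21 to 27.2%). The census share was 27.7%, but that count also took in genes of the TEC biotype, so it cannot be set directly against the members. The median distance to a TSS was 16.9 kb in HCT116 p53+/+ and 16.1 kb in HCT116 p53-/-, against 21.5 kb in the census. It was 19.4 and 21.7 kb for distal T-and-C repeat peaks outside coding genes, 21.7 and 22.1 kb for T-and-G repeat peaks there, and 10.5 and 11.1 kb for distal non-repeat peaks inside coding genes. Within 5 kb of a TSS lay 20.1% (17.4 to 23%) and 21.3% (18.5 to 24.4%) of members, against 15.4% of windows. How much of this goes with the higher GC of the members was not tested. The nearest protein-coding gene was 58.8 kb and 64.3 kb away in the median. Per Mb of eligible sequence there were 0.559 members in HCT116 p53+/+ and 0.513 in HCT116 p53-/-. Chromosome 19 had the most (1.29 and 1.39), followed by chromosome 20 (0.989 and 1.13), and the fewest were on X in HCT116 p53+/+ (0.320) and on chromosome 13 in HCT116 p53-/- (0.236).

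**Figure D5:**
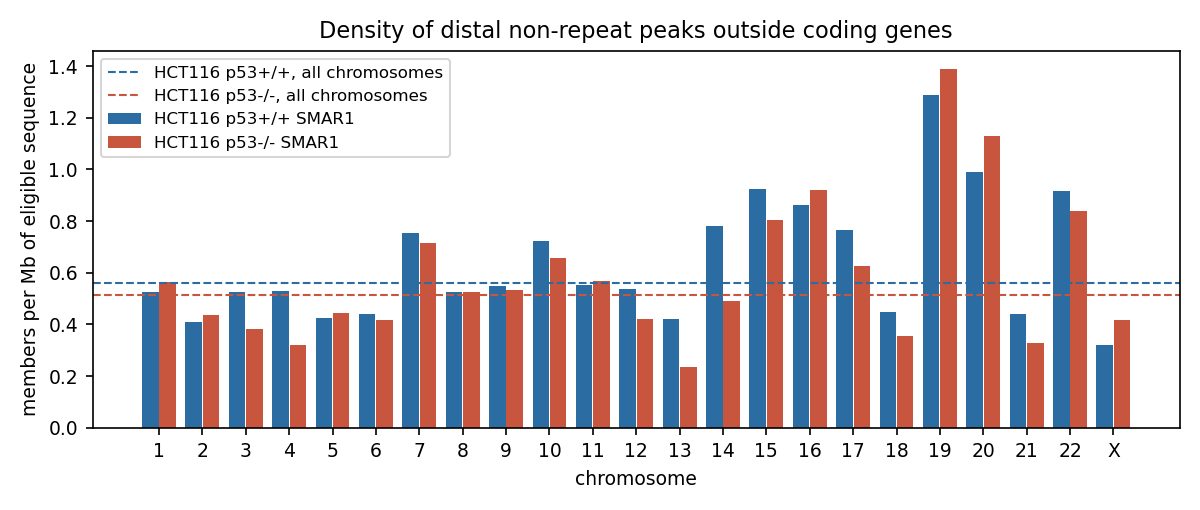
Members per Mb of eligible sequence (vertical axis) on each chromosome, with bars for HCT116 p53+/+ and HCT116 p53-/- and dashed lines at the values over all chromosomes (0.559 and 0.513). Chromosomes 19 and 20 have the tallest bars in both lists.

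Few members lay close together. In HCT116 p53+/+ 61 members formed 26 groups within 10 kb, and in HCT116 p53-/- 56 members formed 26 groups. The largest group of HCT116 p53-/- held 4 members (chr14:106039577-106044827, nearest coding gene TMEM121, scores from 50.8 to 64.99), all with interrupted T(C/G) runs such as the one printed above, and 1 of the 4 overlapped a member of HCT116 p53+/+. MICALL2 was the nearest coding gene of 4 members in each list and ADGRL3, an adhesion receptor gene, of 4 and 3, and 3 of the ADGRL3 members in each list overlapped the other list.

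The members just inside the limits of the rule can be set beside the peaks just outside. Members whose longest pure run was 10 or 11 bp (106 in HCT116 p53+/+ and 155 in HCT116 p53-/-) overlapped the other list in 15.1% and 9.03% of cases, and peaks just outside with a run of 12 or 13 bp (139 and 232) in 18.0% and 13.8%. Members 1000 to 1500 bp from a TSS (21 and 20) had median scores of 63.74 and 62.33, and none held the core palindrome. Peaks just outside, at 500 to 1000 bp (32 and 21), had 68.5 and 77.57 and held the palindrome in 0% and 4.76% of cases. Those under 500 bp (193 and 329) had 79.88 and 161.4 and held it in 23.8% and 24% of cases. The counts on either side of 1000 bp are too small to tell the palindrome shares there apart. Members 200 to 500 kb from a long run of N (54 and 32) overlapped the other list in 5.56% and 9.38% of cases, and peaks nearer than that (265 and 47) in 2.64% and 14.9%.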

How the data were processed

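SMAR1 ChIP-seq peaks of HCT116 p53+/+ and HCT116 p53-/- cells were analysed, 1 library each. Per the submitters' processing notes and the study's methods, the authors trimmed single-end reads with Cutadapt 1.2.1, aligned them to hg19 with Bowtie2 2.2.1, called peaks with MACS 1.4.2 and filtered them on fold enrichment. The deposited score is 10 times the negative log10 of the MACS p-value, not normalized. Whether IgG served as the MACS control is not given in the sources used here. The lists hold no depth. The study gives read totals, higher for HCT116 p53-/-, which were not used here.

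Peaks were placed on GRCh37 and GENCODE release 44 mapped to it, and coordinates are 1-based. Motifs were searched on both strands of 200 bp around the centre, in members and in all eligible windows. Copies of the central 31 bases were counted over hg19, and mitochondrial copies were found with BLAST+ 2.17.0 (80% identity over 50 bp). Shares have 95% Wilson intervals. The functions were tested on simulated data. Scripts ran in Python 3.11.15 (numpy 2.4.6, numba 0.67.0, pandas 2.3.3, scipy 1.17.1).

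The members and lists were chosen with earlier results of these data known. Regions named by rule were the 5 highest scores per list, the 10 best pairs, the 3 highest scores per list with the palindrome and the largest group per list. The sequence groups, CTCGTGAG, the tRNA boxes and the other regions named were chosen after their values were seen. 1 of the 10 pairs is not reported here.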

Additional observations from a re-analysis of the deposited data

How the results depend on the processing

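Of 64 values recomputed under other settings, 53 stayed within 1.5 times the count or within the 95% interval of the share reported. Only peaks at or above the median score of their list left 353 members in HCT116 p53+/+ and 349 in HCT116 p53-/-, moved the overlap to 9.74% in HCT116 p53-/- and the share with a tandem run to 52.7% in HCT116 p53+/+. Counting edges within 1 kb gave an overlap of 16.3% in HCT116 p53-/-. With the central 36 bases, 22.1% and 20.3% of members were multi-copy. With tandem runs of at least 16 bp the shares were 37.2% and 43.0%, and leaving out mixed T(C/G) runs gave 57.9% in HCT116 p53-/-. Counting CTCGTGAG with the core, a choice made after seeing the data, gave 1.66% in HCT116 p53-/-. The cause of these changes was not tested beyond what each setting itself adds or removes. No paired analysis was possible because each cell line had 1 library. The effect of the unequal depth, the IgG libraries and the fold filter could not be examined from the lists.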

Other observations

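Copies of mitochondrial DNA in the nuclear genome overlapped 2 members of HCT116 p53+/+ and 5 of HCT116 p53-/-, and the centres of 97 of the 6946886 census windows lay in one. In HCT116 p53+/+ they were chr5:8622649-8622683 (score 118.4) and chr11:10530757-10531000 (56.92, 1.75 kb from AMPD3, an AMP deaminase gene). In HCT116 p53-/- the highest score among them was 116.73 (chr3:96336530-96337031, 197 kb from EPHA6, an ephrin receptor gene). None overlapped the other list. No member overlapped a copy of the spliceosomal, 7SK, Y, 5S and other small RNA genes searched in the same way. The rule left out peaks within 1 kb of any annotated TSS, so copies annotated as genes were removed beforehand. Their absence is therefore in part set by the rule.

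By the nearest coding gene, zinc finger (ZNF) genes were nearest to 24 members of HCT116 p53+/+ (3.05%, 2.06 to 4.49%) and 25 of HCT116 p53-/- (3.46%, 2.35 to 5.05%), and made up 2.56% of all coding genes. Olfactory receptor genes were nearest to 5 (0.635%, 0.271 to 1.48%) and 6 (0.830%, 0.381 to 1.80%), and made up 2.06% of coding genes. A share of genes does not give the share of eligible sequence nearest to them, which was not computed. No excess or lack of a family can therefore be read from these values. Cancer-testis, keratin-associated, defensin, USP17L and protocadherin genes were nearest to at most 2 members in each list. The members of HCT116 p53+/+ had 679 different nearest coding genes and those of HCT116 p53-/- had 633, of which 179 were the same (26.4% and 28.3%). Members that overlap each other enter this count. The same share was not computed over all peaks, so whether it is high or low for the members cannot be said.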
